A study of Mus musculus with 7 samples.

Results

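From 4 microRNA hairpins linked to tissue injury, inflammation and low oxygen, 6 arms were followed in tissue of the lateral ventricles with their choroid plexus from adult mice of strain C57BL/6J: mmu-miR-21a-5p, mmu-miR-21a-3p, mmu-miR-146a-5p, mmu-miR-146b-5p, mmu-miR-210-3p and mmu-miR-210-5p (mmu marks mouse miRNAs). They were chosen by name, not by their values, though with earlier results of these data known. They are 6 of the 1914 mature mouse miRNA rows in the count tables. Small RNA libraries from 4 TAp73 knockouts were compared with 3 from wild types, all adult and of the same strain. TAp73 is the isoform group of the transcription factor p73 that carries the transactivation domain, and the study, by its title, concerns multiciliogenesis, how brain cells come to carry many motile cilia. The labels give neither the knockout allele nor age in days or sex, and they do not say whether each library came from its own animal, so p-values reflect only how far these libraries vary, which may be technical.

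MicroRNAs are short RNAs that pair through their seed, bases 2 to 8, with messenger RNAs and lower their output. miR-21 is raised in many injured, fibrotic and tumour tissues and, in mouse spinal cord injury, in reactive astrocytes. miR-146a is induced by the inflammatory transcription factor NF-kB, and miR-146a and miR-146b damp the same signalling by targeting its adaptors Traf6 and Irak1. miR-210 is the miRNA most widely induced by hypoxia-inducible factor in low oxygen, and it lowers mitochondrial respiration through the iron-sulphur scaffold protein Iscu. In each hairpin 1 arm is usually loaded into the silencing complex (the guide) while the other (the passenger) is mostly degraded.

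The mature sequences show which members can act on the same targets, with the seed in capitals (RefSeq, build GRCm38.p6, 5′ to 3′).
miR-21a-5p: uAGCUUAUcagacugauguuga
miR-21a-3p: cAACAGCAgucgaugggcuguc
miR-146a-5p: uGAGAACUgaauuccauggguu
miR-146b-5p: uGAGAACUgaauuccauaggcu
miR-210-3p: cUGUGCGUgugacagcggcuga
miR-210-5p: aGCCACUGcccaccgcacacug
The 2 miR-146 guides share 1 seed and, counted from the 5′ end, differ by the substitutions G18A and U21C from miR-146a-5p to miR-146b-5p. The other 4 arms each have a seed of their own. In the RefSeq table of mature mouse miRNAs, miR-21c shares the seed of miR-21a-5p, and it had 1 read over the 7 libraries. Its relative miR-21b, which carries C4U inside the seed, had 5 reads. The miR-21a-5p row held 77420 reads. How reads that fit both miR-146 rows were assigned is not given in the sources used here, so the separate values of miR-146a-5p and miR-146b-5p are less certain than their sum.

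The 4 hairpins are encoded at separate loci (GRCm38, GENCODE release M21). Mir21a lies at chr11:86584067-86584158 on the minus strand, in the last exon of the protein-coding gene Vmp1 and on its strand, within the part annotated as untranslated. Mir146, the gene of miR-146a, lies on the same chromosome at chr11:43374397-43374461 on the minus strand and overlaps no other annotated gene. Mir146b (chr19:46342762-46342870, plus strand) lies in an intron of the protein-coding gene Mfsd13a, on its strand. Mir210 (chr7:141221384-141221493, minus strand) overlaps no other annotated gene and lies between Rassf7 and Phrf1. Its hairpin is shown with the 5p arm and then the 3p arm in capitals, because the balance of its arms differed between libraries.
Mir210: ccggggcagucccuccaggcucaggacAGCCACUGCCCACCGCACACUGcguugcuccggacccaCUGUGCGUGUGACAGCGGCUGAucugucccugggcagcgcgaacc

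The libraries held 969106 to 9343921 assigned reads, of which mouse miRNAs took 98.6% to 99.0%. Knockout replicate 3 was the shallowest. There the exact 95% Poisson interval of a count of 0 reaches 3.86 CPM, reads per 1000000 mouse miRNA reads. By Pearson r across miRNAs on the log2 scale, wild type replicates 1 and 2 correlated best with knockout replicate 2 (0.987 and 0.991). By this measure neither was closest to another wild type. Wild type replicate 3 had an r of 0.984 with each of knockout replicates 1 and 2 and wild type replicates 1 and 2, so none stood out as closest. Wild type replicate 2 was closer to knockout replicates 1, 2 and 4 (r of 0.988, 0.991 and 0.989) than to wild type replicates 1 and 3 (0.986 and 0.984). Results are also given without knockout replicate 3 and wild type replicate 2. The kit carries no molecular identifiers, so intervals from read counts cover counting error only. Because bulk tissue was sequenced, fewer cells of a type and less RNA per cell cannot be told apart.

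In edgeR's quasi-likelihood test over 534 mouse miRNAs, 0 of the 6 arms were called at an adjusted p under 0.05, where 6 of all tested miRNAs (1.12%) were called. At an unadjusted p under 0.05 the count was 0 of 6, beside 69 of 534 (12.9%) of all tested. The median log2 fold change, knockout over wild type, was 0.01 for the 6 arms and -0.02 for all tested miRNAs, with 3 of 6 and 252 of 534 positive. For each of the 6 arms the knockout and wild type libraries overlapped, whereas 11.0% of all tested miRNAs had groups that did not. All 6 arms passed the filter on low counts. DESeq2 and limma-voom also called 0 of the 6, and so did the test without knockout replicate 3 and wild type replicate 2.

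**Figure D1:**
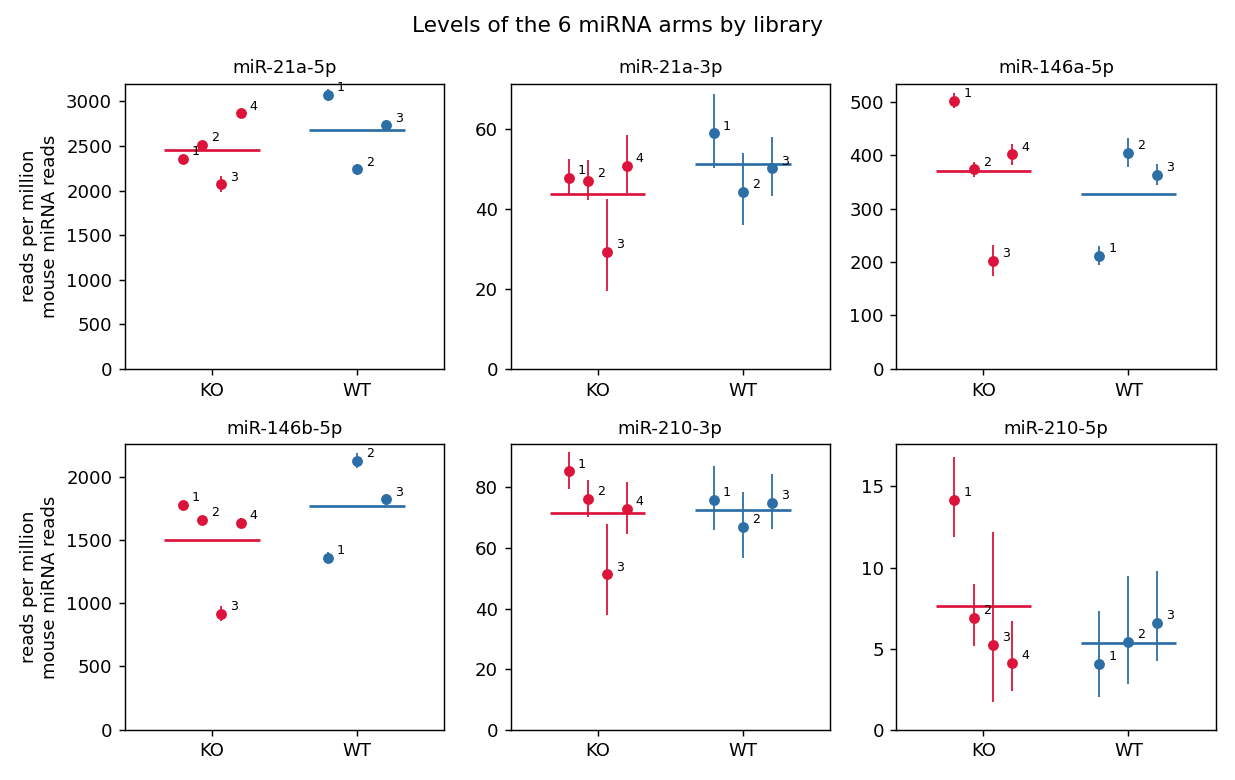
CPM (reads per 1000000 mouse miRNA reads) for each arm, in 4 knockout (KO) and 3 wild type (WT) libraries, numbered by replicate; bars through points are exact 95% Poisson intervals of the read count and horizontal lines are group means. The groups overlap in every panel, and knockout replicate 3 is the lowest library for 5 of the 6 arms.

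miR-21a-5p, the guide arm of miR-21a, was the most abundant of the 6, with rank 46 by mean level among the 1284 mouse miRNA rows that had reads. Its level was 2354, 2516, 2072 and 2867 CPM in knockout replicates 1 to 4, against 3075, 2239 and 2733 CPM in wild type replicates 1 to 3. The highest library was a wild type and the lowest a knockout, and the remaining 5 were interleaved. The means were 2452 ± 332 CPM over the 4 knockouts and 2682 ± 420 over the 3 wild types (± SD). The log2 fold change was -0.05 ± 0.15 (SE, edgeR adjusted p = 0.88). As a fold its 95% interval ran from 0.767 to 1.21, the narrowest interval of the 6 arms on the log2 scale.

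The passenger arm miR-21a-3p stood at 47.8, 47.0, 29.3 and 50.8 CPM in knockout replicates 1 to 4, against 58.9, 44.3 and 50.2 CPM in wild type replicates 1 to 3. As with the guide, wild type replicate 1 was the highest library and knockout replicate 3 the lowest. The log2 fold change was -0.11 ± 0.21 (SE, edgeR adjusted p = 0.82). The lowest value rested on 28 reads and had a counting interval of 19.5 to 42.4 CPM. Guide reads per passenger read were 57.1 ± 8.73 over the 4 knockouts and 52.2 ± 2.03 over the 3 wild types (± SD). The difference in this arm ratio was within the variation among libraries (two-sided exact permutation p = 0.49 over 35 splits). The sign of the small difference in the guide depended on single libraries: its log2 fold change was 0.02 when knockout replicate 3 was left out and 0.06 when wild type replicate 1 was. The passenger was then at 1.6e-05.

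miR-146b-5p was the more abundant of the pair that share a seed. It stood at 1777, 1658, 917.2 and 1636 CPM in knockout replicates 1 to 4, against 1360, 2128 and 1820 CPM in wild type replicates 1 to 3. Knockout replicates 1, 2 and 4 lay close together, inside the wild type range, and knockout replicate 3 lay below all other libraries. The means were 1497 ± 391.6 CPM over the 4 knockouts and 1770 ± 386 over the 3 wild types (± SD). The log2 fold change was -0.16 ± 0.22 (SE, edgeR adjusted p = 0.78). That sign rested on single libraries, since the value was 0.01 without knockout replicate 3 and 0.02 without wild type replicate 2.

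miR-146a-5p stood at 501.9, 373.3, 202.1 and 401.2 CPM in knockout replicates 1 to 4, against 211.7, 404.7 and 363.6 CPM in wild type replicates 1 to 3. One library of each genotype was at about 200 CPM and the others were between 363.6 and 501.9 CPM. The means were 370 ± 125 CPM over the 4 knockouts and 327 ± 102 over the 3 wild types (± SD). The log2 fold change was 0.27 ± 0.29, with a 95% interval of -0.36 to 0.90 (SE, edgeR adjusted p = 0.73). Its size depended on single libraries of both genotypes. It was 0.08 when knockout replicate 1 was left out and 0.46 when knockout replicate 3 was. It was 0.03 when wild type replicate 1 was left out and 0.47 when wild type replicate 2 was. With knockout replicate 3 and wild type replicate 2 both omitted it was 0.67, with an unadjusted p of 0.020 and an edgeR adjusted p of 0.19. That omission was chosen after seeing the data. For this arm it takes out the lowest knockout and the highest wild type, so a rise was built in and is no support. The 3p arms had few reads or none. miR-146b-3p had 2 to 12 reads in each library. miR-146a-3p had 0 reads in all 7. By counting error alone the exact 95% Poisson interval reaches 0.400 CPM in the deepest library and 3.86 CPM in the shallowest. How reads were counted is not given in the sources used here, so 0 reads in a row need not mean absence.

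The share of miR-146a-5p within the pair separated the genotypes. miR-146a-5p made up 22.0%, 18.4%, 18.1% and 19.7% of the reads of both guides in knockout replicates 1 to 4, against 13.5%, 16.0% and 16.6% in wild type replicates 1 to 3. Each knockout library was above each wild type library. Such separation was not rare, since 11.0% of all tested single miRNAs had groups that did not overlap. No such share was computed for ratios of other pairs. As a ratio this was 0.243 ± 0.028 miR-146a-5p reads per miR-146b-5p read over the 4 knockouts and 0.182 ± 0.023 over the 3 wild types (± SD), 1.34-fold higher. The log2 difference was 0.42 ± 0.14 (SE, two-sided exact permutation p = 0.029, the smallest that 35 splits allow). After Benjamini-Hochberg adjustment over the 3 ratios compared it did not pass (adjusted exact p = 0.086). The gap between the nearest libraries was small: knockout replicate 3 at 18.1% had an exact binomial 95% interval of 15.8% to 20.5%, which includes the 16.6% of wild type replicate 3. Leaving out 1 library at a time moved the log2 difference between 0.31, without wild type replicate 1, and 0.49.

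The total of this shared seed did not separate the genotypes. Both guides together came to 2279, 2032, 1119 and 2037 CPM in knockout replicates 1 to 4, against 1572, 2533 and 2184 CPM in wild type replicates 1 to 3. The lowest library was a knockout and the highest a wild type.

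**Figure D2:**
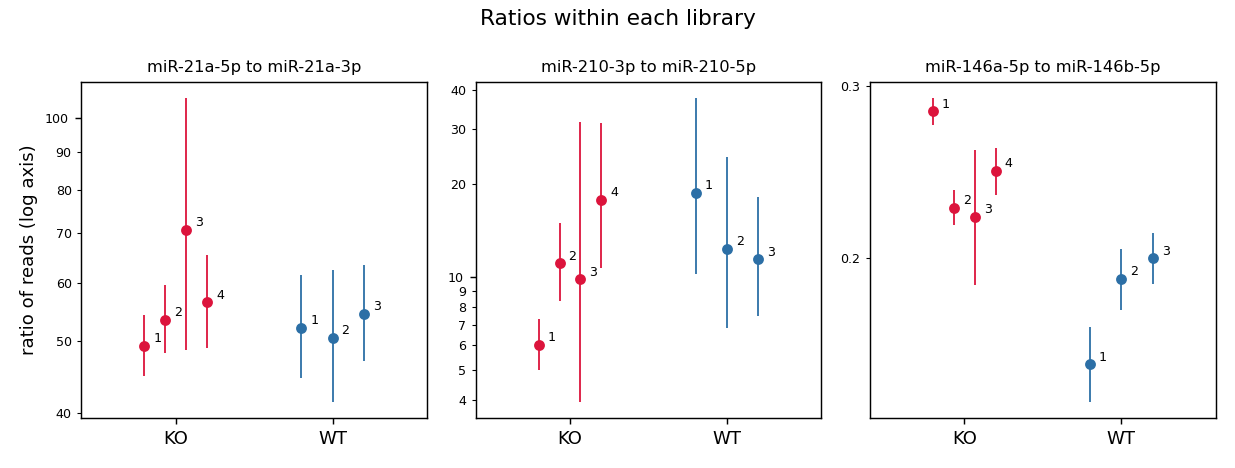
Ratio of reads within each library on a log axis, for the arms of miR-21a, the arms of miR-210 and the 2 miR-146 guides, in 4 knockout (KO) and 3 wild type (WT) libraries numbered by replicate; bars are exact binomial 95% intervals. The genotypes overlap in the arm ratios of miR-21a and miR-210, while for miR-146a-5p to miR-146b-5p the 4 knockouts lie above the 3 wild types.

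miR-210-3p, the guide arm of miR-210, was steady across the wild types. It stood at 85.3, 76.1, 51.3 and 72.9 CPM in knockout replicates 1 to 4, against 76.0, 66.9 and 74.9 CPM in wild type replicates 1 to 3. Both the highest and the lowest library were knockouts. The means were 71.4 ± 14.4 CPM over the 4 knockouts and 72.6 ± 4.94 over the 3 wild types (± SD). The log2 fold change was 0.08 ± 0.19, or a fold of 1.06 with a 95% interval of 0.789 to 1.41 (SE, edgeR adjusted p = 0.87). This value, from TMM-scaled counts, has the opposite sign to the difference of the means. Scaling by library totals alone gave -0.0016, and the value was -0.02 without knockout replicate 1.

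The passenger arm miR-210-5p had the largest fold change of the 6 arms and the fewest reads. It stood at 14.2, 6.89, 5.24 and 4.12 CPM in knockout replicates 1 to 4, against 4.08, 5.43 and 6.58 CPM in wild type replicates 1 to 3. Knockout replicate 1 was the highest, with 131 reads and a counting interval of 11.9 to 16.8 CPM, and the other 6 libraries overlapped. Knockout replicate 3 held 5 reads, with an interval of 1.70 to 12.2 CPM. The log2 fold change was 0.70 ± 0.43, with a 95% interval of -0.25 to 1.65 (SE, edgeR adjusted p = 0.54). Without knockout replicate 1 it was 0.12. With the 4 libraries of consecutive title numbers, which hold knockout replicate 1, it was 1.23 (unadjusted p = 0.017, edgeR adjusted p = 0.33). With no filter on low counts it was 0.74 (unadjusted p = 0.039, edgeR adjusted p = 0.51).

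The arms of miR-210 were most even in the same library. There were 6.00, 10.96, 9.0 and 17.2 reads of miR-210-3p per read of miR-210-5p in knockout replicates 1 to 4, against 17.9, 11.9 and 11.2 in wild type replicates 1 to 3, with 0.5 reads added to each count. The guide led in each library, least so in knockout replicate 1. The log2 difference was -0.41 ± 0.38 (SE, two-sided exact permutation p = 0.31, adjusted exact p = 0.47 over 3 ratios).

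**Figure D3:**
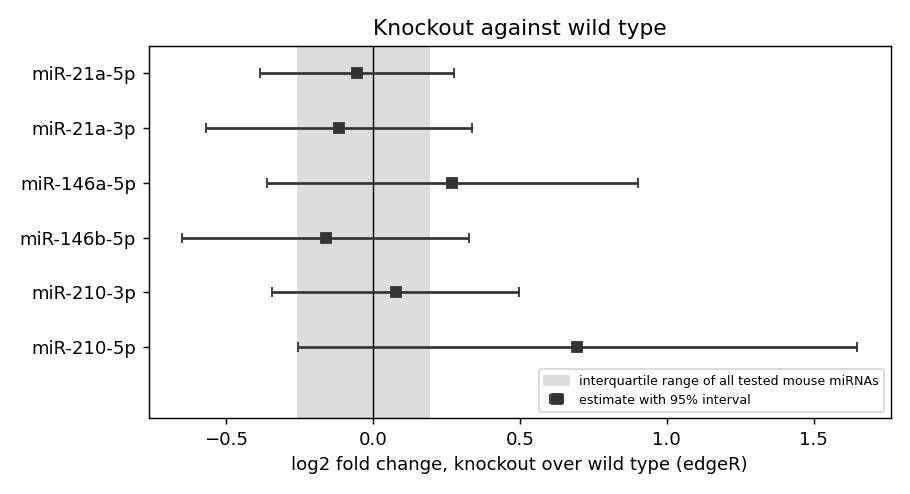
Log2 fold change of each arm, knockout over wild type, from edgeR's fit with its 95% interval, beside the interquartile range of the log2 fold changes of all 534 tested mouse miRNAs (grey). Each of the 6 intervals includes 0, and the widest is that of miR-210-5p, from -0.25 to 1.65.

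For each arm the SD over the knockouts exceeded the difference between the group means. Knockout replicate 3 was the lowest of the 7 libraries for 5 of the 6 arms, whereas it was the lowest for 19.5% of all 534 tested miRNAs. In that library the deviation from the mean of the 7, on the log2 scale, was -0.75 for miR-146b-5p, -0.70 for miR-146a-5p, -0.62 for miR-21a-3p, -0.44 for miR-210-3p and -0.26 for miR-21a-5p. Counting error was small beside this for miR-146b-5p, whose counting interval there was 857.5 to 980.0 CPM, below the other 6 libraries. The 6 arms together took 0.328% of mouse miRNA reads in knockout replicate 3, against 0.468% to 0.505% elsewhere. Leaving that library out, the arms still overlapped between genotypes, and 0 were called.

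**Figure D4:**
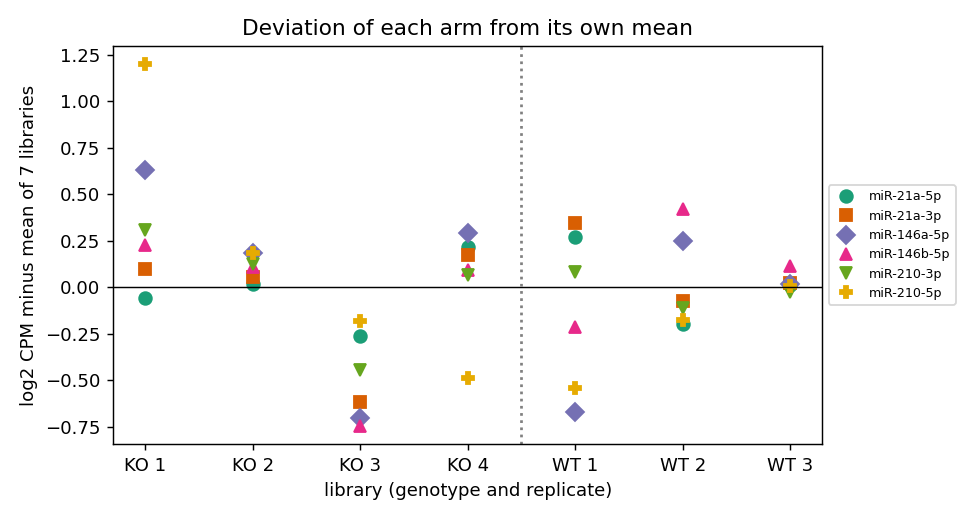
Deviation of the log2 TMM-scaled CPM of each arm from its own mean over the 7 libraries, by library, with 4 knockouts (KO) left of the dotted line and 3 wild types (WT) right of it. All 6 arms are below their mean in knockout replicate 3, and the miR-146a-5p values of knockout replicate 3 and wild type replicate 1 are the lowest of that arm.

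Markers of cell types that could carry these miRNAs were read in the same libraries. Leukocyte and microglia markers summed to 1057 to 1705 CPM in knockouts and 1075 to 1340 CPM in wild types. Their highest sum was in knockout replicate 3, the library where 5 arms were lowest. Most of the sum came from 2 members. miR-342-3p averaged 595 ± 220 CPM over the 4 knockouts and 609 ± 117 CPM over the 3 wild types (± SD). miR-150-5p averaged 380 ± 79.2 and 314 ± 32.4 CPM. The sum therefore says little about the scarcer markers below. Of the 8 members of this list 5 were tested, and with TMM scaling all 5 had positive log2 fold changes, with a median of 0.25 and 0 called. Of its most specific markers miR-223-3p, of neutrophils and other myeloid cells, averaged 5.28 ± 2.38 CPM over the 4 knockouts and 3.27 ± 0.72 CPM over the 3 wild types (± SD; log2 fold change 0.82 ± 0.40, edgeR adjusted p = 0.42). A more abundant member, miR-142a-5p, averaged 261 ± 14.6 CPM over the 4 knockouts and 231 ± 17.1 CPM over the 3 wild types (± SD). Its log2 fold change was 0.25 ± 0.14 (SE, edgeR adjusted p = 0.50). In TMM-scaled CPM its knockout and wild type libraries did not overlap, as for 11.0% of all tested miRNAs. The arms of miR-511, of macrophages, had 3 reads (miR-511-5p) and 7 reads (miR-511-3p) in all libraries together. Endothelium was represented by miR-126a-3p, whose list summed to 785.3 to 984.8 CPM in knockouts and 880.8 to 980.8 CPM in wild types, lowest in knockout replicate 3; its other member, miR-126a-5p, had 0 reads in all 7 libraries.

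Marker miRNAs of other cell types also varied between these libraries. Choroid plexus markers, led by miR-204-5p, summed to 2016 to 7435 CPM in knockouts and 2015 to 11789 CPM in wild types, and the low values belonged to knockout replicate 3 and wild type replicate 2. All 3 of its members had negative log2 fold changes (median -0.36). Erythrocyte markers summed to 3764 to 5217 CPM in knockouts and 3859 to 4196 CPM in wild types, with 4 of 4 log2 fold changes positive (median 0.36). Their highest sum was in knockout replicate 3. Most of it came from the row shared by miR-486a-5p and miR-486b-5p, which averaged 4122 CPM over the 4 knockouts and 3858 CPM over the 3 wild types. miR-451a averaged 121 and 117 CPM. The neuronal pair miR-124-3p and miR-128-3p summed to 25393 to 28395 CPM in knockouts and 14099 to 24922 CPM in wild types, and this was highest in knockout replicate 3. Unlike those of the other marker lists, these sums did not overlap between genotypes. Of all tested single miRNAs, 11.0% also had groups that did not overlap, there in TMM-scaled CPM, while the sums were not TMM-scaled. The gap lay mainly in miR-128-3p, at 18583 ± 687 CPM over the 4 knockouts and 12044 ± 4112 CPM over the 3 wild types (± SD; log2 fold change 0.70 ± 0.20, edgeR adjusted p = 0.15). miR-124-3p was at 7948 ± 1673 CPM over the 4 knockouts and 7441 ± 1868 CPM over the 3 wild types (± SD; log2 fold change 0.16 ± 0.21, edgeR adjusted p = 0.76). Oligodendrocyte markers summed to 356.0 to 517.4 CPM in knockouts and 387.0 to 680.3 CPM in wild types, lowest in knockout replicate 3, and miR-219a-5p among them had 0 reads throughout. The part of these cell types in the levels of the 6 arms was not tested. Of all these markers 0 were called.

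Other miRNAs of the same responses were described as lists beside the 6 arms. Of 7 miRNAs induced by inflammatory signals, 4 were tested, 3 with positive log2 fold changes, with a list median of 0.38 and 0 called. miR-155-5p, which amplifies inflammatory signalling in macrophages and glia, averaged 5.84 ± 1.74 CPM over the 4 knockouts and 4.12 ± 0.52 CPM over the 3 wild types (± SD; log2 fold change 0.44 ± 0.32, edgeR adjusted p = 0.59). The miR-155-5p groups did not overlap in TMM-scaled CPM, as for 11.0% of all tested miRNAs. In this list 2 of the 4 tested members had an unadjusted p under 0.05, beside 69 of 534 (12.9%) of all tested miRNAs. They were miR-132-3p (log2 fold change 0.51 ± 0.17, edgeR adjusted p = 0.27) and miR-9-5p (0.31 ± 0.13, edgeR adjusted p = 0.38). The erythrocyte and neuron lists each had 1 such member. miR-132-3p is also known as a neuronal miRNA induced by activity, and miR-9-5p as one of neural progenitors. miR-147-3p, induced by Toll-like receptors in mouse macrophages, had 30 reads in all and was not tested.

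All 12 miRNAs reported as hypoxia-linked in human cell lines were tested, with 7 positive, a median log2 fold change of 0.09 and 0 called. The smallest p of this list belonged to miR-181b-5p, at 0.33 ± 0.20 (edgeR adjusted p = 0.53). Of 9 miRNAs linked to fibrosis and repair, 7 were tested, with 3 positive, a median of -0.02 and 0 called. Its smallest p belonged to miR-222-3p, which is raised in many proliferating cells, at 0.36 ± 0.20 (edgeR adjusted p = 0.48). In that list miR-29b-3p, which targets collagen messages, was at -0.31 ± 0.19 (edgeR adjusted p = 0.53). None of these lists held a called miRNA, beside 1.12% called among all tested.

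The miRNAs whose log2 levels followed each guide most closely over the 7 libraries differed from guide to guide. The measure was Pearson's r, and the 3 highest of 528 values are given as a description, since 7 libraries leave room for high values. For miR-21a-5p they were miR-574-3p (r = 0.962), miR-542-3p (r = 0.910) and miR-362-3p (r = 0.893). For miR-210-3p they were the endothelial miR-126a-3p (r = 0.953), miR-195a-3p (r = 0.930) and miR-7224-3p (r = 0.927). For miR-146a-5p they were miR-3078-5p (r = 0.943), let-7j (r = 0.921) and miR-3065-3p (r = 0.910). For miR-146b-5p they were miR-5121 (r = 0.966), miR-130b-3p (r = 0.956) and miR-3071-5p (r = 0.922). The 2 guides with 1 seed had none of these listed miRNAs in common. Neither guide could be listed for the other, so this does not show that the 2 vary apart.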

How the data were processed

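Libraries of the TruSeq small RNA kit were made from total RNA extracted by phenol/chloroform, per the labels' protocols. Each deposited table holds unnormalized read counts for 1 library, per small RNA name. The tool bcl2fastq 2.17.1.14, build mm10 and DESeq2 appear, without a role, per the submitters' processing notes; the aligner, the counter and the annotation were not given in the sources used here. In every table the 5 closing lines for unassigned reads hold 0 reads.

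The counts of all mouse miRNA rows entered edgeR 4.0.16 (R 4.3.3) with TMM scaling, filterByExpr by group (minimum count 10, total 15), robust quasi-likelihood test, Benjamini-Hochberg adjustment over all 534 tested and a threshold of 0.05. CPM are reads per 1000000 mouse miRNA reads, without TMM where levels, means and sums are printed. TMM-scaled CPM were used for the deviations from the mean of the 7 libraries and for the correlations with each guide. They were also used for the shares of all tested miRNAs that were lowest in a library or had groups that did not overlap. The 3 ratios, with 0.5 reads added to each count, used exact permutation over 35 splits. Over 21 pairs of libraries, chi-square per degree of freedom was at least 46.6 (miRNAs with 20 or more reads), so none was counted as a repeat. The members, lists, alternatives and naming rule (all members, other arms, shared seeds, the 3 closest miRNAs per guide, up to 4 list members by smallest p) were chosen with earlier results of these data known; other list members named as most specific or best known were chosen after their values were seen. Alternatives used DESeq2 1.42.0 and limma 3.58.1.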

Additional observations from a re-analysis of the deposited data

Results flagged for a closer look

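Among the 4 knockout libraries, 9 values (the log2 levels of the 6 arms and the 3 log2 ratios) were checked for 1 library lying apart. This held for 2 of them, and chance gives about 1 in 20 for a single value. The 9 values are not independent, since the ratios are built from the arms. Both cases are the same library, so they do not count as 2 separate observations. For miR-146b-5p, knockout replicate 3 was at 917.2 CPM and the other 3 between 1636 and 1777 CPM, which on the log2 scale is 0.874 of the whole spread of the group. For miR-21a-3p, the same library was at 29.3 CPM, from 28 reads, and the others between 47.0 and 50.8 CPM, which is 0.861 of the spread. With 3 libraries, the wild types could not be checked in this way.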

How the results depend on the processing

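In 107 refits of single arms, 0 were called and 98 kept the direction of the reported log2 fold change. The exceptions beyond single libraries were miR-210-3p at -0.0016 with library totals alone, miR-146b-5p at 0.038 with the 4 libraries of consecutive title numbers, and, without knockout replicate 3 and wild type replicate 2 (chosen after seeing the data), miR-146b-5p at 0.19 and the log2 ratio of the miR-21a arms at -0.0064. Leaving out 1 library at a time gave ranges of -0.15 to 0.058 for miR-21a-5p, -0.20 to 1.6e-05 for miR-21a-3p, -0.32 to 0.019 for miR-146b-5p and -0.025 to 0.18 for miR-210-3p. The count of all called miRNAs, 6 in the reported test, was 13 with DESeq2 (63 of 534 without an adjusted p), 19 with no filter, 19 without the same 2 libraries, and, when 1 library was left out, from 3 (wild type replicate 1 omitted) to 14 (wild type replicate 2 omitted); the cause was not tested. The 10 CPM filter removed miR-210-5p. Rows of other species added 0 reads to the 6 arms. The miR-146 ratio kept its direction in all its alternatives, and with a library left out its exact test cannot reach 0.05. No paired analysis was possible because the labels give no shared replicate numbers (those used here follow the order of deposit and pair nothing). Depth limits miR-210-5p most, with 5 to 24 reads in 5 of the 7 libraries.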
